A study of Mus musculus with 20 samples.

Results

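The genes described here code for 8 surface receptors of myeloid cells, 4 Fc gamma receptors (Fcgr1, Fcgr2b, Fcgr3 and Fcgr4) and 4 receptors of the Cd300 family (Cd300a, Cd300lb, Cd300ld and Cd300lf). They were chosen by symbol, without any threshold on a measured value, and are 8 of the 46078 genes in the table of counts. Their reads come from TRAP–seq of epididymal adipose tissue (epiAT), which sequences the mRNA bound to tagged ribosomes of adipocytes, in 20 AdipoERCre x NuTRAP mice on a C576BL6 background. In these mice the Cre is driven by the adiponectin promoter and is switched on by tamoxifen, so that ribosomes of adipocytes carry a GFP tag, by which they are captured from lysed tissue. Control mice carried the same alleles and received chow throughout. By the paper's methods this was a low-fat chow during the HFD period, and all mice had a different, standard chow during weight loss. The controls of the HFD groups and those of the weight loss groups thus ended on different chow. In the short arm, with 3 mice in each group, C mice (chow) and H mice (12 weeks of HFD) were 18 weeks old, and CC_s mice (chow) and HC mice (12 weeks of HFD, then 8 weeks of chow) were 26 weeks old. In the long arm, with 2 mice in each group, CC_l mice (chow) and HH mice (25 weeks of HFD) were 31 weeks old, and CCC mice (chow) and HHC mice (25 weeks of HFD, then 8 weeks of chow) were 39 weeks old. Run labels differ between the arms, and comparisons of HFD or weight loss (WL) groups were therefore made with the chow group of the same arm and age.

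Fc gamma receptors bind the constant part of IgG and tie antibody to phagocytosis and cytokine release. Fcgr1, Fcgr3 and Fcgr4 are activating receptors that need the adaptor Fcer1g, whose ITAM motif recruits Syk, whereas Fcgr2b is the inhibitory member and carries an ITIM that recruits the phosphatase Inpp5d. Cd300 receptors are paired in the same way, many of them bind lipids exposed on dying cells, and in adipose tissue both families are best known from macrophages.

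All 8 genes are protein coding and lie in mm10 on 3 chromosomes. Fcgr2b (chr1:170958617-170976547, minus strand), Fcgr4 (chr1:171018920-171029761, plus strand) and Fcgr3 (chr1:171051174-171064935, minus strand) are neighbours, and Fcgr1 lies apart at chr3:96282909-96293969 on the minus strand. The Cd300 genes form a cluster, with Cd300a at chr11:114890041-114904654 on the plus strand and Cd300lb (chr11:114922781-114934386), Cd300ld (chr11:114982274-114989922) and Cd300lf (chr11:115116214-115133992) on the minus strand. Exons of Fcgr2b overlap those of the antisense gene Gm38204, which had no count in any of the 20 mice. Cd300lf overlaps Rab37 outside its own exons.

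Fcgr2b and Fcgr3 are close relatives, and 9.58% of the 50-base words in Fcgr3 transcripts also occur in Fcgr2b transcripts. Reads from such words could have been given to either gene or dropped, so counts of both carry that uncertainty. For Cd300ld, 3.89% of the words occur elsewhere, most of them in Cd300lf, and for Cd300a 3.45%, most of them in Cd300c2. Fcgr1, Fcgr4 and Cd300lb shared none. The longest coding stretch that Fcgr2b and Fcgr3 have in common, 129 bases read 5′ to 3′ from GENCODE vM21 transcripts, is shown because it is where the 2 genes cannot be told apart:
shared by Fcgr2b and Fcgr3: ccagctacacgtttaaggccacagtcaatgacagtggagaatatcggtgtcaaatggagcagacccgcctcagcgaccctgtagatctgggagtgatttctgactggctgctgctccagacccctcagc

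Because most of these genes moved together across mice, their promoters were searched for the letters GAGGAA, the core of sites of the myeloid factor PU.1, on both strands. In the 250 bases before the RefSeq start (GRCm38.p6), GAGGAA occurred in 6 of the 8 genes, all but Fcgr2b and Cd300lb, against 23.3% of 32851 mouse promoters. The letters TTCNNNGAA (a STAT site, GAS) occurred in Fcgr1 only, against 7.02% of promoters. TTGCNNAA (C/EBP) occurred in Cd300a and Fcgr3, against 9.56%, and TGANTCA (AP-1) in none of the 8, against 6.75%. For the 8 genes a match at any start of the gene counted, whereas the shares of all mouse promoters are per promoter, so the units differ. A match describes the letters and does not show binding. The RefSeq starts used for Fcgr2b and Fcgr3 lie inside the gene spans given above, which come from another annotation (GENCODE vM21). Fcgr3 has a second RefSeq start, with the stretch chr1:171059404-171059553, which is not printed. The 150 bases before the start are printed 5′ to 3′ on the strand of the gene for the 3 receptors called in H that hold a match and for Fcgr2b, which holds none, with matches to GAGGAA or its reverse complement in capitals:
Fcgr1, chr3:96293970-96294119, minus strand: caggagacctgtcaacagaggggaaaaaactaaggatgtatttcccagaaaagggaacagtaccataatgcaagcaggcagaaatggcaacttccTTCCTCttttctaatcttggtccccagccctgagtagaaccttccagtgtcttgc
Fcgr3, chr1:171059395-171059544, minus strand: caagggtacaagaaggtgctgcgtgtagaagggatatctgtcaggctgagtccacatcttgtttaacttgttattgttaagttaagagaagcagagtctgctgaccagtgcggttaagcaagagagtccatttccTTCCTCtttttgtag
Cd300a, chr11:114889891-114890040, plus strand: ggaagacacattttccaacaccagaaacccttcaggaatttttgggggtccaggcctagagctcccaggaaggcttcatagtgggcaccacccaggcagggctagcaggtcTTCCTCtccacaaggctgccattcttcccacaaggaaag
Fcgr2b, chr1:170976072-170976221, minus strand: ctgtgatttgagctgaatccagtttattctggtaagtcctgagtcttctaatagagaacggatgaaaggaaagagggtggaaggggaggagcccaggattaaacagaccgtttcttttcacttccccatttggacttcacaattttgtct

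Several of the receptors had more mRNA on HFD than on chow in both arms. A filter on low counts left 21464 genes, all 8 receptors among them, for edgeR's quasi-likelihood test. Genes were called where the nominal p was under 0.01 and the log2 fold change was 1 or more in either direction, whereas the p-values printed below are adjusted over all of these genes. In H against C, 4 of the 8 were called higher (Fcgr1, Fcgr3, Cd300a and Cd300lb) and none lower, against 3.57% of all genes called higher. After 8 weeks of chow, 5 of the 8 were called higher in HC against CC_s (Fcgr1, Fcgr3, Cd300a, Cd300lb and Cd300ld) and none lower, against 1.57% of all genes. In HH against CC_l, 5 of the 8 were called higher (Fcgr1, Fcgr2b, Fcgr3, Cd300lb and Cd300ld) and none lower, against 4.92% of all genes. In HHC against CCC only Cd300ld was called, higher, against 0.447% of all genes.

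The calls were less frequent under a stricter threshold. At a Benjamini-Hochberg adjusted p under 0.05, 2 receptors were higher in H (Fcgr3 and Cd300a, against 1.28% of all genes) and 3 in HH (Fcgr1, Fcgr3 and Cd300lb, against 1.75%). None of the 8 passed it in HC, where 0% of all genes did, although 5 had an unadjusted p under 0.05 and DESeq2 gave 2 receptors an adjusted p under 0.05. None passed it in HHC, where again 0% of all genes did, 1 had an unadjusted p under 0.05 and DESeq2 gave 0. Over the 8 receptors the log2 fold change had a median of 2.22 in H and 2.23 in HC, and of 2.97 in HH and 0.92 in HHC, whereas the medians of all tested genes were -0.15, 0.27, -0.23 and -0.06.

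The groups were also compared mouse by mouse on TMM-normalised log2 CPM. Every H mouse lay above every C mouse for 4 receptors (Fcgr3, Cd300a, Cd300lb and Cd300ld), against 13.4% of all genes, and every H mouse lay below every C mouse for Cd300lf, against 11.8%. Every HC mouse lay above every CC_s mouse for the 5 called receptors, against 8.01% of all genes. In the long arm, with 2 mice against 2, both HH mice lay above both CC_l mice for 7 receptors, all but Cd300lf, against 26.3% of all genes. For HHC against CCC this held for Cd300ld alone, against 8.49%.

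**Figure D1:**
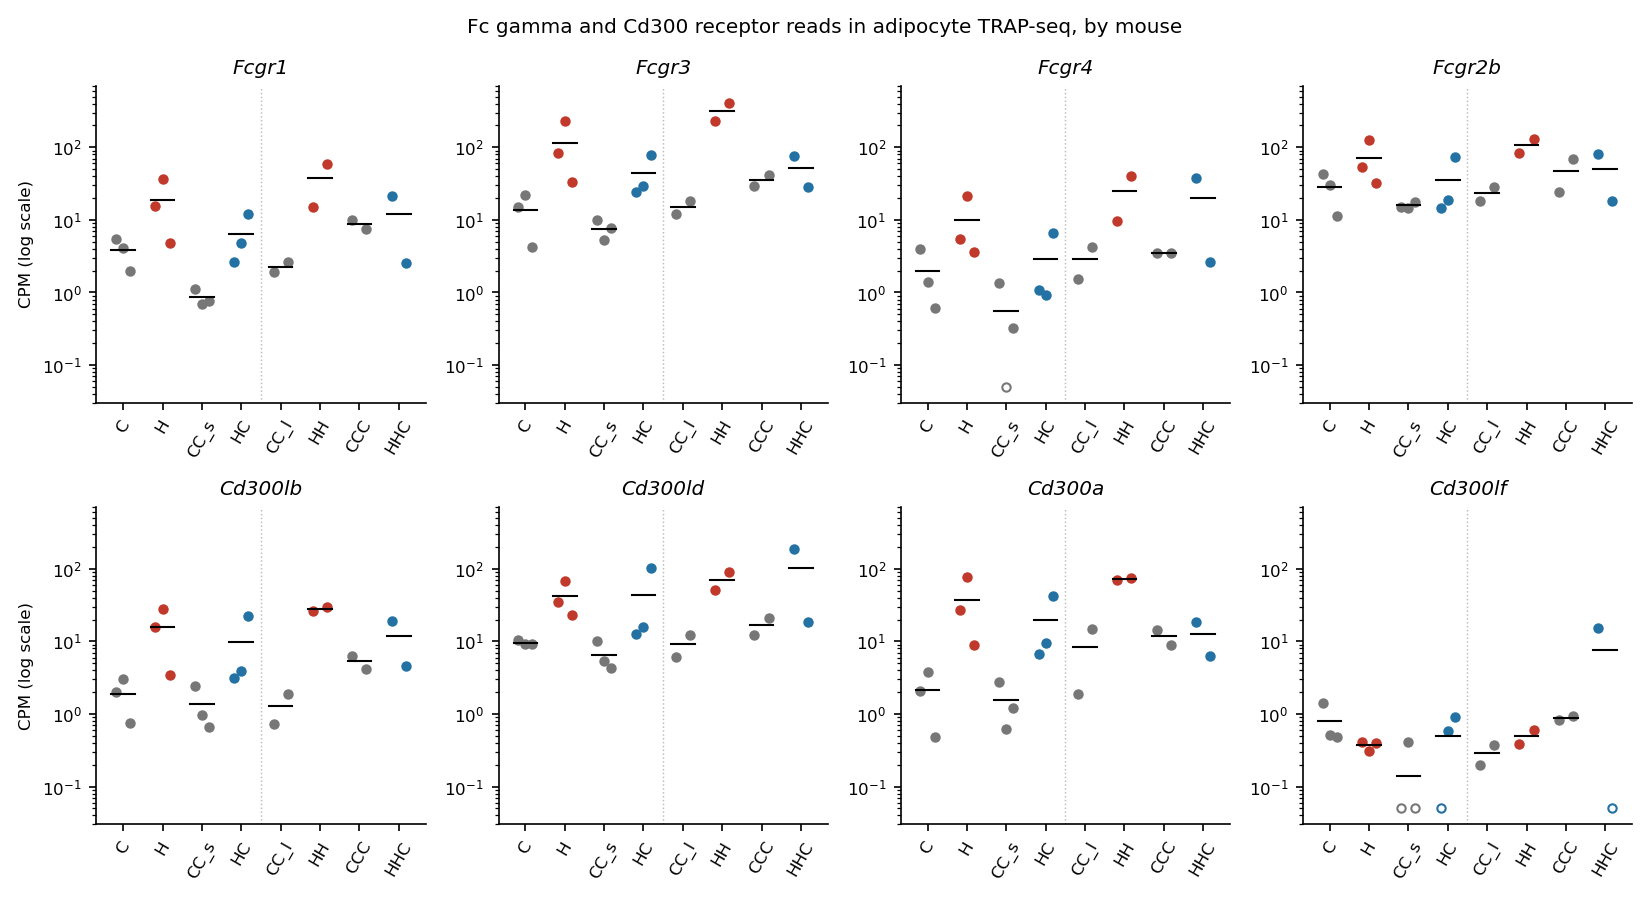
CPM of each receptor on a log scale, 1 point per mouse in the 8 groups (chow grey, HFD red, WL blue, the dotted line parts the short from the long arm), with the group mean as a black bar and mice without a count as open circles at the foot. In H 7 of the 8 group means lie above the C mean, and for each of the 8 receptors the highest HC mouse is replicate 3 and the highest HHC mouse is replicate 1.

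**Figure D2:**
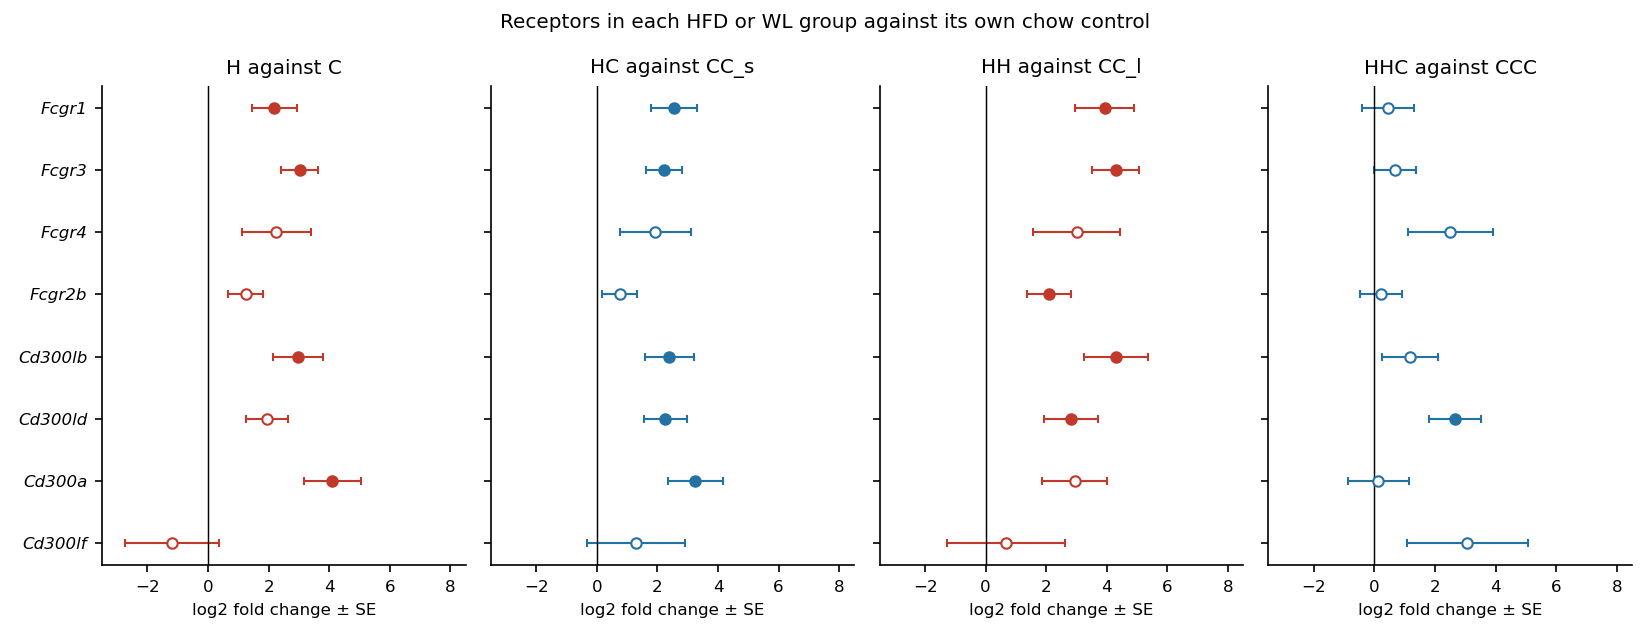
Log2 fold change with its SE for each receptor in the 4 comparisons, from edgeR's quasi-likelihood fit, where filled points mark called genes. Counts of filled points are 4, 5, 5 and 1 from left to right.

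The calls rest on few mice, and 1 mouse set the top of several groups. Summed over the 8 receptors, H replicate 2 held 589 CPM against 236 and 110 in the other H mice, HC replicate 3 held 340 CPM against 65.4 and 83.8, and HHC replicate 1 held 455 CPM against 81.6 in the other HHC mouse. The 4 calls in H fell to 2 without C replicate 3 and to 2 without H replicate 2. The 5 calls in HC fell to 0 without CC_s replicate 2, to 1 without CC_s replicate 3 and to 1 without HC replicate 3. In HH the 5 calls fell to 1 without CC_l replicate 1 and to 2 without HH replicate 2, and the single call in HHC was lost without CCC replicate 1, CCC replicate 2 or HHC replicate 1.

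Markers of macrophages were higher along with the receptors in H, HC and HH. Of 12 macrophage markers (Adgre1, Cd68, Csf1r, Ptprc, Itgam, Mrc1, C1qa, C1qb, C1qc, Lyz2, Mpeg1 and Laptm5), 7 were called higher in H, 6 in HC and 10 in HH, against 3.57%, 1.57% and 4.92% of all genes. No macrophage marker was called in HHC, where none had an unadjusted p under 0.05 and DESeq2 called 0. The summed level of the 12 ranged from 240 to 677 CPM in C and from 887 to 4618 in H, from 271 to 390 in CC_s and from 518 to 3218 in HC, from 326 to 519 in CC_l and from 4296 to 5809 in HH, and from 997 to 1395 in CCC and from 719 to 3335 in HHC. The part of these markers in the receptor values was not tested. In a pull-down from whole tissue, a change in the number of cells of a type and a change in RNA per cell cannot be told apart. Markers of other cells moved as well. In HHC all 6 T and NK cell markers lay above CCC without overlap on the TMM-normalised scale, against 8.49% of all genes. Of them 1 was called (Trac), against 0.447% of all genes called higher. Their summed level was 115 and 23.9 CPM in HHC against 12.6 and 14.0 in CCC. In HH, 26.3% of all genes lay above CC_l without overlap and 4.92% were called higher. There 5 of the 6 T and NK cell markers, all 6 mast cell markers and all 5 dendritic cell markers lay above CC_l, with 1 called in each list. The summed T and NK cell markers ranged from 44.3 to 47.0 CPM in HH and from 9.55 to 12.2 CPM in CC_l. Of 6 neutrophil genes, 3 could be tested and 1 was called, S100a8 in H, which ranged from 0.934 to 6.71 CPM in C and from 54.8 to 260.3 CPM in H, whereas Ly6g stood at no more than 0.132 CPM in any mouse. The part of these cells in the receptor values was not tested.

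The mice with the most receptor mRNA in HC and HHC held the fewest reads of the adipocyte gene Adipoq in their groups. Adipoq was read at 654 CPM in HC replicate 3, the lowest of all 20 mice, against 6056 and 3465 in the other HC mice, and at 1221 CPM in HHC replicate 1 against 7620 in HHC replicate 2. Summed over 8 adipocyte genes, HC replicate 3 held 23158 CPM against 57776 and 70056 in HC, and the HHC mice held 54478 and 70158. Fabp4 alone gave 43261 of the 54478 CPM in HHC replicate 1. The 8 genes did not all go the same way. In HHC, Plin1 (373 against 287 CPM), Cidec (4436 against 3264) and Lipe (1310 against 616) were higher in replicate 1, whereas Adipoq, Pparg, Lep, Plin4 and Fabp4 were lower. In HC, Plin4 alone was not lowest in replicate 3 (5216 against 2310 CPM in replicate 1). In H replicate 2 Adipoq stood at 1907 CPM, between the other H mice. The part of adipocyte content in the receptor values was not tested.

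Levels of different genes were compared as CPM per kilobase of exon. In C, Fcgr3 stood highest at 7.90 ± 5.12 (SD, n = 3), followed by Fcgr2b at 4.85 ± 2.75 and Cd300ld at 3.63 ± 0.255, and the ranges of mean ± SD of neighbours overlapped. Fcgr4 (1.58 ± 1.40), Fcgr1 (1.48 ± 0.661), Cd300lb (0.655 ± 0.384), Cd300a (0.449 ± 0.350) and Cd300lf (0.155 ± 0.101) came after them, and here too the ranges of mean ± SD of neighbours overlapped, whereas those of Cd300ld and Fcgr4 did not. In HH, Fcgr3 stood at 183 ± 69.4 CPM per kilobase (SD, n = 2), above Cd300ld at 26.7 ± 10.3, and Fcgr4, Fcgr2b, Cd300a and Fcgr1 lay between 14.4 and 20.1. Fcgr2b, the next after Fcgr3 in C, was the fourth of the 8 in HH.

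Fcgr3, a low-affinity activating receptor, gave the clearest differences. Its level was 15.1, 21.9 and 4.25 CPM in the C mice and 83.4, 233 and 32.8 CPM in the H mice. All H mice lay above all C mice, and the fitted difference was 8.13-fold (log2 fold change 3.02 ± 0.61 SE, edgeR adjusted p = 0.0164). Levels in CC_s were 9.82, 5.24 and 7.64 CPM and those in HC 24.4, 29.8 and 78.7 CPM. Here too the groups did not overlap, and HC stood 4.61-fold above CC_s (log2 fold change 2.21 ± 0.59, edgeR adjusted p = 0.536).

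In the long arm, Fcgr3 was read at 12.1 and 18.0 CPM in CC_l and at 232 and 402 CPM in HH. HH stood 19.5-fold above CC_l without overlap (log2 fold change 4.29 ± 0.79, edgeR adjusted p = 0.0193). In CCC it was 29.2 and 41.3 CPM, and in HHC 76.0 and 28.5 CPM. The HHC mice lay on either side of both CCC mice, and the log2 fold change of 0.67 ± 0.70 was not called (edgeR adjusted p = 0.769). Without H replicate 2 the log2 fold change in H was 2.08, still called, and the call in HC was lost without CC_s replicate 2 (2.00).

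Fcgr1, the high-affinity receptor for IgG, was read at 5.37, 4.14 and 1.99 CPM in C and at 15.5, 36.6 and 4.82 CPM in H. H replicate 3 lay below C replicate 1, so the groups overlapped, with a called log2 fold change of 2.19 ± 0.73 (edgeR adjusted p = 0.134). Among CC_s mice it was 1.12, 0.690 and 0.759 CPM and among HC mice 2.67, 4.76 and 11.97 CPM. No HC mouse reached down to the CC_s mice, and the log2 fold change was 2.54 ± 0.76 (edgeR adjusted p = 0.536). Among CC_l mice it was 1.92 and 2.61 CPM and among HH mice 14.9 and 59.6 CPM, which gave a log2 fold change of 3.93 ± 0.97 (edgeR adjusted p = 0.0446). The CCC mice stood at 10.1 and 7.38 CPM, above both CC_l mice, and the HHC mice at 21.5 and 2.52 CPM, on either side of them.

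Each Fcgr1 call depended on several single mice. In H the call was lost without any of C replicate 1 (log2 fold change 2.50), C replicate 2 (2.15), C replicate 3 (1.98), H replicate 1 (2.30) or H replicate 2 (1.34). In HC it was lost without CC_s replicate 2 (2.41), CC_s replicate 3 (2.46) or HC replicate 3 (2.10). In HH it was lost without CC_l replicate 1 (3.65) or HH replicate 2 (2.64), and without HH replicate 1 it stood at 4.62.

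Fcgr4, an activating receptor for IgG2 subclasses, was called in none of the 4 comparisons. Its level ranged from 0.617 to 3.97 CPM in C and from 3.61 to 21.2 CPM in H, with a log2 fold change of 2.25 ± 1.14 (edgeR adjusted p = 0.326). It ranged from 0 to 1.34 CPM in CC_s and from 0.937 to 6.58 CPM in HC, and the log2 fold change was 1.94 ± 1.17 (edgeR adjusted p = 0.628). In the long arm the CC_l mice stood at 1.53 and 4.23 CPM and the HH mice at 9.78 and 40.7 CPM, with a log2 fold change of 3.00 ± 1.43 (edgeR adjusted p = 0.289). HHC replicate 1 held 37.5 CPM, whereas HHC replicate 2 held 2.61 CPM, below both CCC mice.

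Fcgr2b, the inhibitory receptor, differed less from chow than Fcgr3 in all 4 comparisons. It was read at 43.0, 30.0 and 11.2 CPM in C and at 53.6, 126 and 32.4 CPM in H. The groups overlapped, and the log2 fold change of 1.24 ± 0.57 was not called (edgeR adjusted p = 0.281). CC_s gave 15.1, 14.5 and 17.9 CPM and HC 14.6, 18.6 and 73.3 CPM. HC replicate 3 alone stood clear of the CC_s mice, and the log2 fold change was 0.76 ± 0.57 (edgeR adjusted p = 0.721). CC_l gave 18.1 and 28.3 CPM and HH 82.8 and 132 CPM, a called log2 fold change of 2.10 ± 0.72 (edgeR adjusted p = 0.144). This call was lost without CC_l replicate 1 (1.75), CC_l replicate 2 (2.61) or HH replicate 2 (1.76). CCC mice stood at 24.2 and 69.5 CPM and HHC mice at 82.0 and 18.4 CPM, with overlap.

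Within each mouse, the balance of Fcgr3 to Fcgr2b shifted between groups. This ratio was chosen after the values had been seen and is given as a description without a test. Per kilobase, Fcgr3 was 1.17, 2.43 and 1.26 times Fcgr2b in the C mice and 5.18, 6.19 and 3.38 times in the H mice. It was 2.17, 1.21 and 1.42 times in the CC_s mice and 5.55, 5.34 and 3.58 times in the HC mice. In both comparisons the lowest HFD or WL mouse lay above the highest chow mouse, and HC replicate 3, the mouse with the most receptor mRNA in HC, had the lowest ratio of its group.

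In the long arm the ratio was 2.22 and 2.13 in CC_l and 9.34 and 10.2 in HH. It was 4.02 and 1.98 in CCC and 3.09 and 5.16 in HHC, where the groups overlapped. The difference between the log2 fold changes of Fcgr3 and Fcgr2b was 1.78 in H, 1.45 in HC, 2.19 in HH and 0.45 in HHC. Leaving out each mouse in turn gave 1.43 to 2.20 in H, 1.30 to 1.77 in HC and 2.11 to 2.23 in HH. Of the summed level of the 4 Fc gamma receptors per kilobase, Fcgr2b made up 25.3% to 34.8% in C and 11.6% to 19.1% in H, 26.7% to 43.2% in CC_s and 13.7% to 18.7% in HC, and 24.8% to 26.0% in CC_l and 7.36% to 8.86% in HH. In HHC it made up 14.7% and 14.0%, below both CCC mice at 15.1% and 29.0%.

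**Figure D3:**
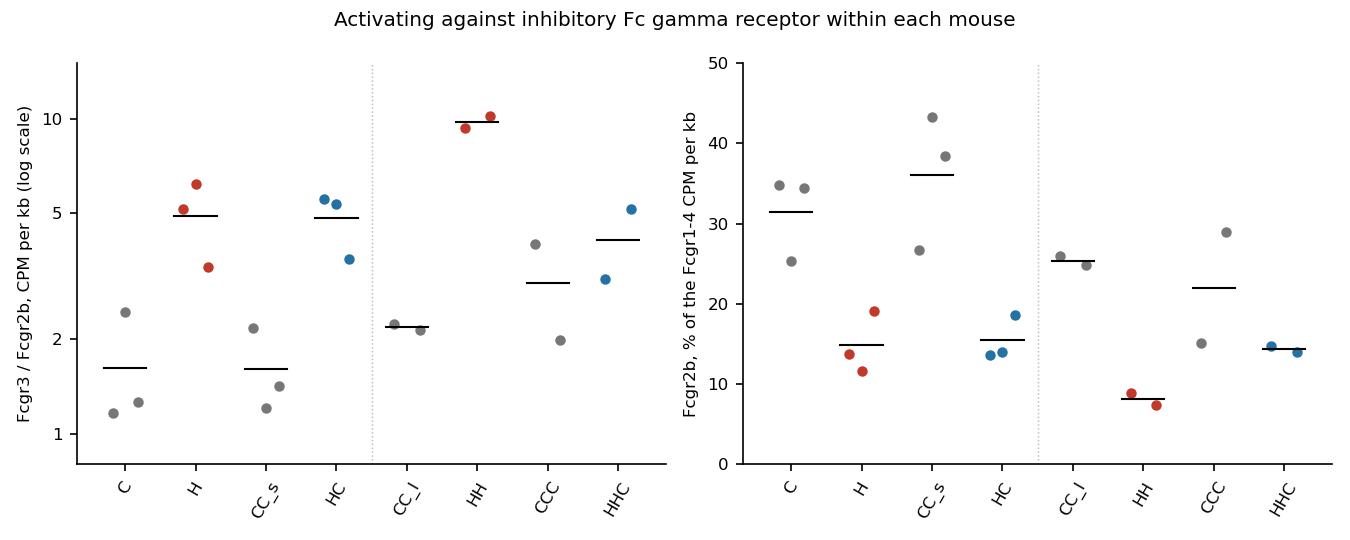
Left, Fcgr3 divided by Fcgr2b in CPM per kilobase on a log scale, and right, Fcgr2b as a percentage of the summed CPM per kilobase of the 4 Fc gamma receptors, 1 point per mouse with the group mean as a bar. H, HC and HH mice lie above (left) and below (right) all mice of their own chow group. HHC and CCC overlap on the left, and on the right both HHC mice lie below both CCC mice.

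Cd300lb, an activating receptor that signals through Tyrobp, was read at 1.98, 2.99 and 0.754 CPM in C and at 15.7, 28.2 and 3.41 CPM in H. All H mice lay above all C mice, and the log2 fold change was 2.97 ± 0.81 (edgeR adjusted p = 0.0656). The CC_s mice stood at 2.46, 0.964 and 0.655 CPM and the HC mice at 3.10, 3.96 and 22.6 CPM, with a log2 fold change of 2.40 ± 0.80 (edgeR adjusted p = 0.536). The HC mice lay above the CC_s mice, 2 of them by a narrow margin. The CC_l mice stood at 0.730 and 1.87 CPM and the HH mice at 25.9 and 29.4 CPM, a 19.7-fold difference (log2 fold change 4.30 ± 1.06, edgeR adjusted p = 0.0440). CCC mice stood at 6.35 and 4.23 CPM and HHC mice at 19.0 and 4.57 CPM, with a log2 fold change of 1.17 ± 0.93 (edgeR adjusted p = 0.685).

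The Cd300lb call in H was lost without C replicate 3 (2.67) or H replicate 2 (2.30). In HC it was lost without CC_s replicate 2 (2.20), CC_s replicate 3 (2.07) or HC replicate 3 (1.37), and without CC_s replicate 1 the value was 3.13. In HH it was lost without CC_l replicate 1 (3.71) and stood at 5.27 without CC_l replicate 2.

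Cd300ld, an activating receptor that pairs with Fcer1g, was the only one of the 8 called in HHC. It was read at 10.4, 9.26 and 9.18 CPM in C and at 34.6, 67.5 and 23.4 CPM in H. The C mice lay close together and below all H mice, and the log2 fold change of 1.93 ± 0.70 was not called (edgeR adjusted p = 0.162). Levels in CC_s were 10.1, 5.44 and 4.26 CPM and those in HC 12.7, 15.6 and 104 CPM, with a called log2 fold change of 2.26 ± 0.70 (edgeR adjusted p = 0.536). Levels in CC_l were 6.10 and 12.4 CPM and those in HH 51.5 and 89.9 CPM, with a called log2 fold change of 2.81 ± 0.88 (edgeR adjusted p = 0.109).

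In CCC, Cd300ld was read at 12.2 and 21.2 CPM and in HHC at 185 and 18.8 CPM. HHC replicate 1 stood highest of all 20 mice, and HHC replicate 2 lay between the CCC mice in CPM and above both only after TMM normalization. The log2 fold change was 2.66 ± 0.87 (edgeR adjusted p = 0.294), and it was 0.53 without HHC replicate 1, 2.43 without CCC replicate 1, 2.91 without CCC replicate 2 and 3.48 without HHC replicate 2, called only in the last. The call in HC was lost without CC_s replicate 2 (2.14), CC_s replicate 3 (2.02) or HC replicate 3 (1.10). In HH it was lost without CC_l replicate 1 (2.33) or HH replicate 2 (2.39) and stood at 3.57 without CC_l replicate 2.

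Cd300a, an inhibitory receptor for phosphatidylserine and phosphatidylethanolamine, was read at 2.10, 3.80 and 0.480 CPM in C and at 27.2, 76.6 and 8.93 CPM in H. The lowest H mouse lay above the highest C mouse, and the difference of 17.2-fold was the largest of the 8 in H (log2 fold change 4.10 ± 0.94, edgeR adjusted p = 0.0308). Among CC_s mice it was 2.79, 0.620 and 1.20 CPM and among HC mice 6.80, 9.59 and 42.2 CPM, with a log2 fold change of 3.24 ± 0.91 (edgeR adjusted p = 0.536). The HC mice all lay above the CC_s mice. Among CC_l mice it was 1.86 and 14.9 CPM and among HH mice 69.2 and 74.6 CPM. The CC_l mice differed widely, and the log2 fold change of 2.94 ± 1.08 was not called (edgeR adjusted p = 0.171).

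In CCC, Cd300a was read at 14.4 and 8.99 CPM and in HHC at 18.7 and 6.25 CPM, with a log2 fold change of 0.12 ± 1.01 (edgeR adjusted p = 1.00). The Cd300a call in H held without each mouse, with a log2 fold change from 3.11 without H replicate 2 to 4.70 without C replicate 2. In HC it was lost without CC_s replicate 2 (2.85), CC_s replicate 3 (3.09) or HC replicate 3 (2.42) and stood at 4.01 without CC_s replicate 1.

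Cd300lf, a receptor with ITIM motifs that also binds lipids, stayed near the limit of detection in 19 of the 20 mice. It ranged from 0 to 1.40 CPM in them, and the limit of 3 counts lay between 0.0817 and 0.280 CPM. HHC replicate 1 was the exception, with 162 counts or 15.1 CPM, while HHC replicate 2 had 0 counts, which allows up to 0.140 CPM. The C mice stood at 1.40, 0.518 and 0.480 CPM and the H mice at 0.411, 0.311 and 0.401 CPM, and the log2 fold change of -1.19 ± 1.56 was not called (edgeR adjusted p = 0.737). In the other comparisons the log2 fold changes ran from 0.68 to 3.07 and none was called.

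Whether the effects of HFD and of WL differed was tested as the difference of 2 log2 fold changes in edgeR's quasi-likelihood fit. No receptor differed between the H and HC effects at an adjusted p under 0.05, where 0% of all genes did, none had an unadjusted p under 0.05, and DESeq2 gave 0. The differences there ran from -2.49 ± 2.25 (SE) for Cd300lf to 0.86 ± 1.20 for Cd300a. No receptor differed between the HH and HHC effects either, against 0.815% of all genes, with 3 at an unadjusted p under 0.05 and 1 (Fcgr3) by DESeq2 at an adjusted p under 0.05. The HH effect exceeded the HHC effect by 3.62 ± 1.01 on the log2 scale for Fcgr3 (edgeR adjusted p = 0.0934), by 3.49 ± 1.26 for Fcgr1 (edgeR adjusted p = 0.19) and by 3.13 ± 1.34 for Cd300lb (edgeR adjusted p = 0.272). For Cd300ld the difference was 0.16 ± 1.16 (edgeR adjusted p = 1.00). Between the H and HH effects no receptor differed, as 0% of all genes did, none had an unadjusted p under 0.05, and DESeq2 gave 0.

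Of 3 adaptors that carry the activating signal, Fcer1g and Tyrobp were called higher in H, HC and HH and none in HHC, where 1 had an unadjusted p under 0.05 and DESeq2 called 1. Fcer1g, the common gamma chain, was read at 23.5, 22.2 and 7.26 CPM in C and at 105, 301 and 42.8 CPM in H (log2 fold change 2.99 ± 0.57, edgeR adjusted p = 0.0120). It was 13.8, 12.1 and 9.83 CPM in CC_s and 31.1, 36.7 and 90.0 CPM in HC (1.81 ± 0.55, edgeR adjusted p = 0.536). All H and HC mice lay above their chow mice. CC_l gave 15.9 and 30.1 CPM and HH 214 and 401 CPM (3.62 ± 0.72, edgeR adjusted p = 0.0247), and in HHC it was not called (0.99 ± 0.65).

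Tyrobp, also called DAP12, was read at 8.76, 9.49 and 3.97 CPM in C and at 90.0, 184 and 27.3 CPM in H (log2 fold change 3.65 ± 0.57, edgeR adjusted p = 0.00492). CC_s gave 7.81, 4.20 and 6.99 CPM and HC 23.7, 26.0 and 96.3 CPM (2.56 ± 0.55, edgeR adjusted p = 0.344). The CC_l mice stood at 9.62 and 16.9 CPM and the HH mice at 190 and 255 CPM (3.95 ± 0.71, edgeR adjusted p = 0.0187). None of these pairs of groups overlapped. In CCC it was 31.5 and 29.1 CPM and in HHC 60.5 and 39.4 CPM, and the log2 fold change of 0.84 ± 0.63 was not called (edgeR adjusted p = 0.664).

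Hcst, the adaptor also called DAP10 and named after its values had been seen, was called in no comparison. It was read at 3.85, 1.61 and 1.58 CPM in C and at 3.37, 5.59 and 1.71 CPM in H, with overlap and a log2 fold change of 0.46 ± 0.69 (edgeR adjusted p = 0.779). Both in HH and in HHC it stood higher without overlap on the TMM-normalised scale, with log2 fold changes of 2.32 ± 0.88 and 2.25 ± 0.88, and HHC replicate 1 held the most of all 20 mice, 20.2 CPM.

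Of 33 genes listed for the pathway (3 adaptors, 15 activating and 7 inhibitory signalling genes and 8 immunoglobulin heavy chains), 32 were tested. Calls, all of them higher, numbered 7 in H and 6 in HC on the short arm and 6 in HH and 2 in HHC on the long one. Over all genes, 3.57%, 1.57%, 4.92% and 0.447% were called higher. The median log2 fold changes of the 32 genes were 0.97, 1.40, 1.34 and 0.83. The activating genes gave 4, 3, 4 and 1 of the calls among the 32. The inhibitory genes gave 1 in H (Csk, which restrains Src kinases) and 1 in HHC (Dok1), both named after their values had been seen, and none in HC and HH, where 1 and 2 of the 7 had an unadjusted p under 0.05 and DESeq2 called 0. Dok1 was read at 23.0 CPM in HHC replicate 1 but at 3.83 CPM in HHC replicate 2, against 3.64 and 2.28 CPM in CCC. The phosphatases Ptpn6, Ptpn11 and Inpp5d were called in no comparison.

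The Src kinase Lyn, which phosphorylates both ITAM and ITIM motifs, ranged from 11.4 to 22.8 CPM in C and from 63.7 to 89.1 CPM in H (log2 fold change 1.90 ± 0.35, edgeR adjusted p = 0.00991) and from 11.4 to 17.4 CPM in CC_l and from 87.7 to 110 CPM in HH (2.67 ± 0.44, edgeR adjusted p = 0.0145). Lcp2, the scaffold also known as SLP-76, was called in H (1.99 ± 0.67) and HH (2.47 ± 0.83). Lat2, a membrane scaffold, had 0, 4 and 0 counts in the C mice and 180, 399 and 22 counts in the H mice and was called in H and in HC, with the size of its fold set by the near-absence in chow. Rac2, a GTPase of the phagocyte oxidase, was called in HH (2.36 ± 0.70) and HHC (2.16 ± 0.69).

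**Figure D4:**
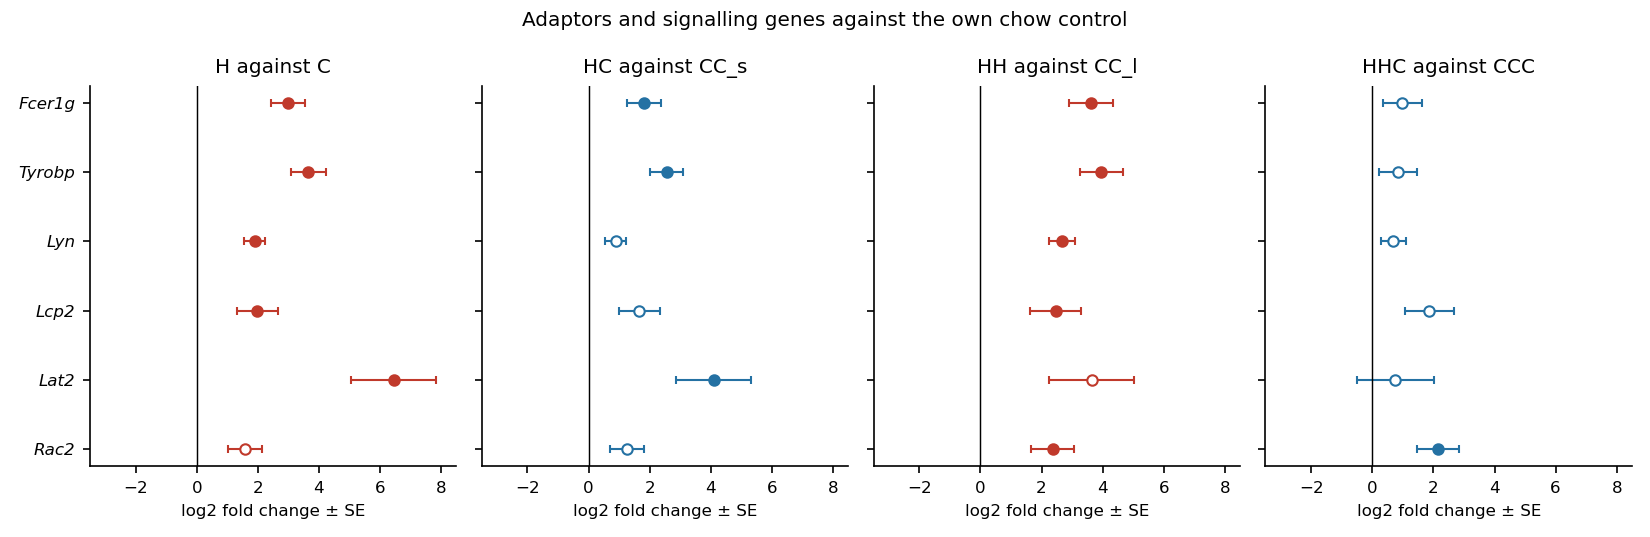
Log2 fold change with its SE for the adaptors Fcer1g and Tyrobp and for the signalling genes Lyn, Lcp2, Lat2 and Rac2, from edgeR's quasi-likelihood fit, where filled points mark called genes. Filled points, by which the 4 signalling genes were chosen, are fewest in HHC against CCC, where Rac2 alone is filled.

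Immunoglobulin heavy chains, whose mRNA marks plasma cells and B cells, include those of IgG, the ligand of Fc gamma receptors. Of the 7 tested, 1 was called, Ighg2c in HC (log2 fold change 5.57 ± 1.20, edgeR adjusted p = 0.344), named after its values had been seen. Summed, the 4 IgG heavy chain genes ranged from 0.690 to 5.95 CPM in C and from 2.63 to 12.3 CPM in H, with overlap. They ranged from 1.45 to 6.55 CPM in CC_s and from 7.78 to 130.4 CPM in HC, without overlap, where HC replicate 3 held the most, and from 14.1 to 54.2 CPM in CC_l and from 47.4 to 53.5 CPM in HH, with overlap. Most heavy chain mRNA was Ighm, the chain of IgM, which made up 84.7% to 98.6% of the summed heavy chains in C and 98.1% to 99.2% in H. Ighm itself ranged from 63.5 to 524 CPM in C and from 828 to 1407 CPM in H, and its log2 fold change of 1.82 ± 0.74 was not called (edgeR adjusted p = 0.223).

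Other genes of both families were set beside the 8. Of 6 other Cd300 genes tested, all of them higher in H by log2 fold change, 2 were called in H. Cd300c2, an activating relative, was called in H (3.49 ± 1.13, edgeR adjusted p = 0.119) and HC (3.58 ± 1.15, edgeR adjusted p = 0.536). Cd300lg, which is expressed by endothelial cells, was called in H (2.38 ± 0.53, edgeR adjusted p = 0.0278) and HH (3.31 ± 0.68, edgeR adjusted p = 0.0253). Of 4 endothelial markers, 3 were called higher in H and 4 in HH and 1 lower in HHC (Tek), and Pecam1 ranged from 36.9 to 204 CPM in C and from 384 to 651 CPM in H. Their part in the Cd300lg values was not tested. Of 9 other Fc receptors tested, none was called in H or HC, where 1 had an unadjusted p under 0.05 in each and DESeq2 called 0. Fcrls and Fcgrt, the neonatal Fc receptor, were called in HH (2.94 ± 0.62 and 1.25 ± 0.42), and Pigr in HHC, where it was read in HHC replicate 1 (5.60 CPM) and in no other HHC or CCC mouse.

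Each receptor was also divided by the summed macrophage markers of the same mouse, a description chosen after the values had been seen and given without a test. Cd300a ranged from 2.00 to 5.76 CPM per 1000 CPM of markers in C and from 10.1 to 16.6 in H, and from 2.19 to 7.15 in CC_s and from 13.1 to 13.5 in HC. Fcgr3 ranged from 17.7 to 33.2 in C and from 37.0 to 50.5 in H and from 34.8 to 37.0 in CC_l and from 54.0 to 69.3 in HH. Both were thus higher in these groups than in chow, without overlap, also relative to the markers, whereas Fcgr3 overlapped between CC_s (18.5 to 28.2) and HC (24.4 to 47.1). Cd300a overlapped between CC_l and HH.

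Fcgr2b behaved in the opposite way on this scale. It ranged from 45.6 to 63.5 CPM per 1000 CPM of markers in C and from 27.2 to 36.5 in H, from 38.6 to 66.1 in CC_s and from 22.8 to 28.3 in HC, and from 54.4 to 55.5 in CC_l and from 19.3 to 22.7 in HH. In these 3 comparisons every HFD or WL mouse lay below every chow mouse. The sum leans on genes with many reads, and Lyz2 gave 138 of 677 CPM in C replicate 1 and 2063 of 4618 CPM in H replicate 2. Mrc1 alone was read at 105, 116 and 36.5 CPM in C and at 138, 275 and 80.6 CPM in H. Relative to Mrc1 alone, Fcgr2b overlapped with chow in H and in HC and was lower in HH. Relative to the sum, Fcgr1 (6.28 to 8.27 in C, 5.43 to 7.95 in H) and Cd300ld (14.1 to 38.2 in C, 14.6 to 26.4 in H) overlapped. In HC, Fcgr1 lay above CC_s (3.72 to 6.69 against 2.44 to 2.86). Cd300ld in HHC, at 26.1 and 55.5, lay above both CCC mice, at 12.3 and 15.2.

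**Figure D5:**
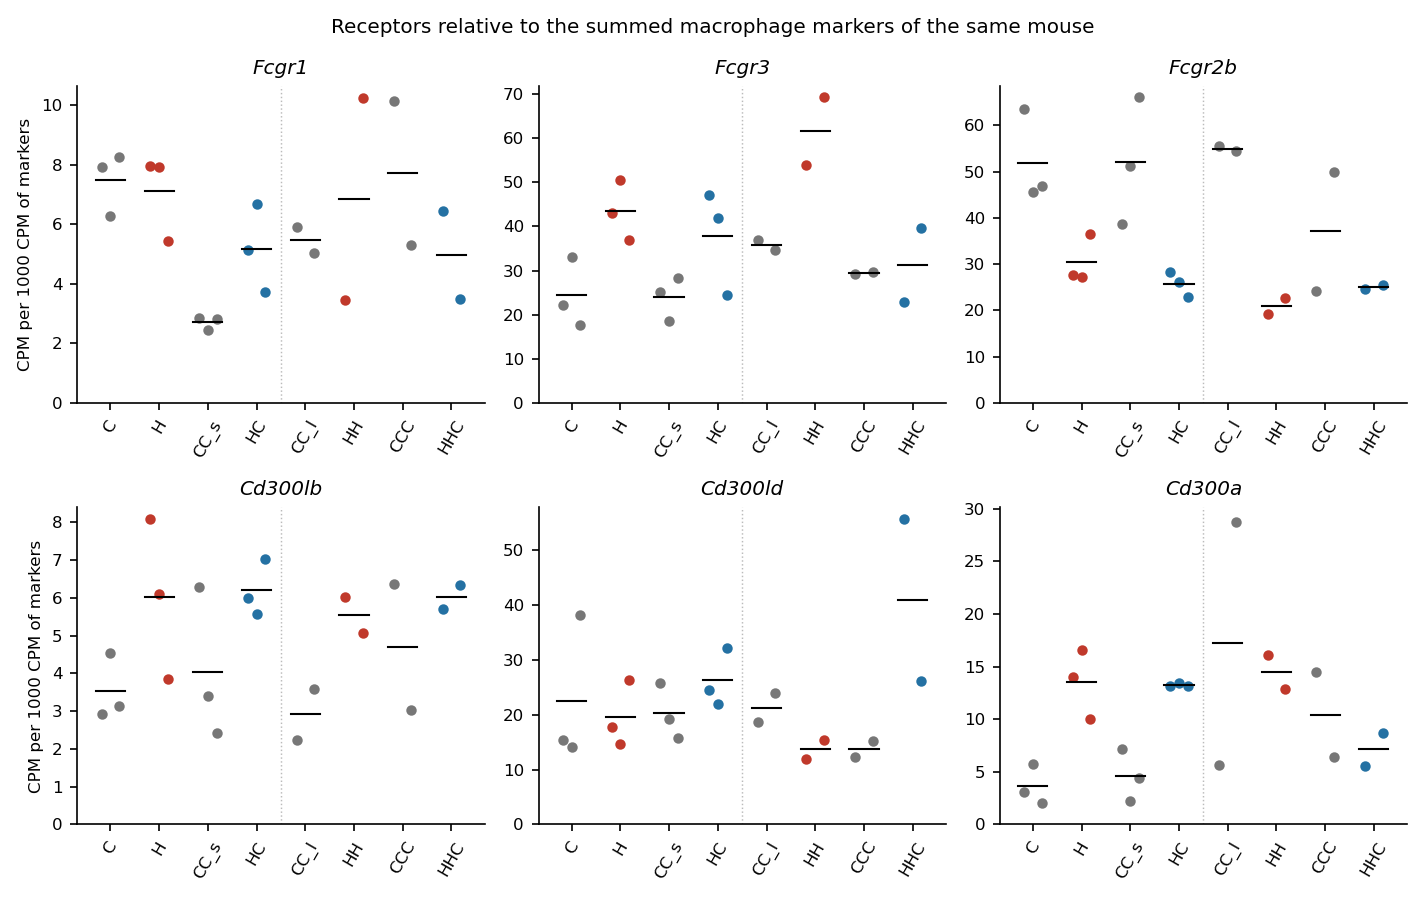
CPM of 6 receptors per 1000 CPM of the 12 summed macrophage markers of the same mouse, 1 point per mouse in the 8 groups with the group mean as a bar. Fcgr3 and Cd300a lie higher in H than in C and Fcgr2b lies lower in H, HC and HH than in their chow groups, without overlap.

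The genes whose log2 CPM was most like that of each receptor across the 20 mice were taken by Pearson correlation. Of these neighbours Lyz2, C1qb and Adgre1 are among the 12 macrophage markers listed above. Trem2 is a marker of lipid-associated macrophages, and Fcer1g and Tyrobp are the adaptors described above. The nearest genes were Lyz2, Fcer1g and C1qb for Fcgr3 (r = 0.983, 0.977 and 0.977), Ifi30, Clec4a2 and Adgre1 for Fcgr1 (0.952, 0.946 and 0.938), and Capg, Tyrobp and Trem2 for Cd300a (0.962, 0.957 and 0.955). For Cd300lb they were Clec12a, Lgmn and Ctss (0.971, 0.964 and 0.964), for Cd300ld Lcp1, Lair1 and Rac2 (0.966, 0.963 and 0.947), for Fcgr2b Selplg, Hacd4 and Ptpro (0.956, 0.956 and 0.933), and for Fcgr4 Plcg2, Ifi47 and Ms4a4c (0.947, 0.946 and 0.940). Cd300lf stood apart, with Batf2, Trpm2 and Tnf at 0.872, 0.864 and 0.828. The points share the libraries, and group differences and the high mice named above enter every one of these values.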

How the data were processed

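TRAP–seq libraries of 20 mice in 8 groups were used. The authors trimmed the reads with Trim Galore 0.6.6, aligned them to mm10 with HISAT2 2.2.1 and deposited raw counts, whole numbers that featureCounts of Subread 2.0.1 gave for each gene; tool versions are from the submitters' processing notes. The annotation, strand setting and handling of read pairs are not given in the sources used here. Totals ranged from 10710277 to 36738954 counts per mouse, and 74.4% to 89.2% of the nonzero counts were even, so an alternative with halved counts was run. GENCODE vM21 gave symbols for 98.2% of 46078 genes.

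From the deposited counts, CPM (counts scaled to the library total) and log2 fold changes were computed. The quasi-likelihood test of edgeR 4.0.16 (R 4.3.3) was fitted to all 20 libraries in 8 groups after filterByExpr and TMM, with Benjamini-Hochberg adjustment over 21464 genes. The receptors and gene lists were chosen with earlier results of these data known. The text names the 8 receptors, Fcer1g and Tyrobp, other genes of both families where it counts them, and signalling genes called in at least 2 comparisons; others are marked where they stand, and 1 gene that this rule takes is not reported here. The labels call the mice biological replicates. In the short arm the deviations of same-numbered mice correlated at -0.277 to 0.192, and the numbers were not used as pairs. With 2 mice in each group of the long arm the deviations mirror each other, so such values cannot show whether pairs exist. The test was checked on simulated data for H against C with 21464 genes. There 105 of 200 changed genes were recovered, and 215 unchanged genes were called. Alternatives were RLE, DESeq2 1.42.0, no filter, only the compared groups, halved counts, a replicate block, an adjusted p and leaving out each mouse. Limits of 3 counts cover counting error only. Figures were drawn with matplotlib 3.10.9.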

Additional observations from a re-analysis of the deposited data

Results flagged for a closer look

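For 2 genes related to the receptors, the HFD effect of the long arm differed from the effect after WL in edgeR's quasi-likelihood fit, as 0.815% of all genes did. For Cd300lg the log2 fold change relative to chow was 3.31 for HH and -1.19 for HHC, a difference of 4.50 ± 0.92 (SE, edgeR adjusted p = 0.0350). For Fcrls it was 2.94 and -1.19, a difference of 4.13 ± 0.86 (SE, edgeR adjusted p = 0.0360). Both HH mice lay above both CC_l mice and both HHC mice lay below both CCC mice for each gene. Cd300lg ranged from 24.1 to 24.6 CPM in CC_l, from 133 to 377 in HH, from 36.4 to 102 in CCC and from 22.2 to 28.4 in HHC. Fcrls ranged from 4.11 to 6.97 CPM in CC_l, from 41.1 to 48.1 in HH, from 7.17 to 23.6 in CCC and from 5.42 to 5.88 in HHC. Neither difference is stable. That of Cd300lg was lost in 6 of 8 fits without 1 mouse and that of Fcrls in 7 of 8, with values from 3.57 to 5.09 and from 3.29 to 4.69, and over all genes the 175 differences fell to 0 without CC_l replicate 1. Cd300lg passed only without HH replicate 2 or CCC replicate 1, and Fcrls only without CCC replicate 1. Both were also lost with RLE, with the replicate block and in a fit of the 4 groups alone. Endothelial markers moved in the same direction as Cd300lg, with 3 of 4 (Pecam1, Kdr and Tek) different between the HH and HHC effects and a summed level from 115 to 119.5 CPM in CC_l, from 659 to 1149 in HH, from 180 to 464 in CCC and from 68.5 to 76.2 in HHC. Their part in the Cd300lg values was not tested.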

How the results depend on the processing

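Most receptor calls stand close to the threshold, and groups of 2 or 3 mice and mice with high receptor totals limit what can be said, in the long arm above all. Over RLE, DESeq2, no filter, halved counts, only the compared groups and both blocks, 182 of 206 receptor log2 fold changes kept their direction and their side of the threshold, 13 lost a call, 10 gained one and 1 turned. With an adjusted p under 0.05 in place of the nominal rule, H had 2 called receptors and HC 0, HH had 3 and HHC 0. When low counts were not filtered, 7 receptors were called in H and 2 in HHC, signalling genes numbered 12 in H, 16 in HC and 12 in HH, and 3 receptors differed between the HH and HHC effects. Calls over all genes rose as well in that fit, to 2492 in H, 1764 in HC, 2879 in HH and 1266 in HHC. In the main fit they numbered 1392, 374, 1458 and 669. Between the HH and HHC effects, 1266 genes differed without the filter, against 175 in the main fit. DESeq2 called 10 signalling genes in HC, and 1 receptor differed between the HH and HHC effects. Over all genes DESeq2 called 727 in HC, and 1215 differed between the HH and HHC effects. In fits of the compared groups alone, 3 receptors were called in HC, and signalling genes numbered 10 in HH and 0 in HHC. Over all genes these fits called 243 of 16034 in HC, 1894 of 17667 in HH and 218 of 15807 in HHC. The replicate block called 3 receptors for HC, 3 for HH and 0 for HHC, with 1 signalling gene in HHC. Over all genes it called 204 for HC, 1040 for HH and 375 for HHC. The labels do not say that a number marks a shared litter or day, and in H and C the deviations of same-numbered mice correlated at -0.167, 0.187 and 0.192, in HC and CC_s at -0.277, 0.0593 and -0.238. In the long arm they correlated at -0.193 (HH and CC_l) and -0.260 (HHC and CCC), and a crossed pairing, chosen after seeing the data, called 5 receptors and 5 signalling genes in HH and 0 receptors and 0 signalling genes in HHC, with Cd300a in HHC at -0.15. Over all genes the crossed pairing called 1181 in HH and 435 in HHC. Leaving out each mouse gave 2 to 5 receptors for H, 0 to 5 for HC, 1 to 5 for HH and 0 to 1 for HHC, and 6 to 7, 3 to 11, 3 to 6 and 0 to 4 signalling genes. The log2 fold change in HHC changed sign for Fcgr1 (-1.49 to 1.24), Fcgr2b (-0.95 to 0.94), Fcgr4 (-0.10 to 3.38), Cd300a (-0.61 to 0.70) and Cd300lf (-7.16 to 4.07), and so did the difference between Fcgr3 and Fcgr2b there (-0.18 to 0.99). The difference of the HH and HHC effects changed sign for Fcgr4 (-0.84 to 3.11), Cd300ld (-0.65 to 2.30, and -0.015 with halved counts and -0.013 with only the compared groups) and Cd300lf (-3.38 to 7.84). RLE split the calls over all genes in HHC into 156 higher of 577, against 96 higher of 669 with TMM, and DESeq2 into 350 higher of 1185. RLE moved the median of all genes by less than the receptors differed, from -0.15 to -0.23 in H and from -0.06 to 0.00 in HHC. The cause of these changes was not tested, other than that a fit without the filter tested 34443 genes.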
